A study of Zea mays with 29 samples.

Results

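The genes described here are 100 maize leaf genes whose transcripts took up a smaller share of the messenger RNA when the background genome was haploid, with or without an added copy of the long arm of chromosome 1 (1L). They were chosen from CPM, the reads of a gene for every 1000000 counted reads of its library. Of 40306 listed gene identifiers, 37119 lay outside the run numbered 2682 to 5868, which was left out because its expression had followed the copy number of 1L in these same tables. Of these, 12782 had a mean of at least 5 CPM over the 17 libraries of series 1, and 8287 were eligible because their tetrasomic and diploid levels differed by less than 0.3 on the log2(mean CPM + 0.5) scale. For each eligible gene 2 differences were taken on that scale, haploid minus diploid and disomic haploid minus tetrasomic. The 100 genes with the lowest value of the weaker difference were kept and are ranked by it.

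Poly(A) RNA was sequenced from maize leaves in 2 series of plants, each with its own diploids. Series 1 held 4 diploids with 2 copies of 1L, 5 trisomics with 3, 3 tetrasomics with 4, 3 haploids with 1, and 2 disomic haploids, which carry 2 copies of 1L on a haploid set of the other chromosomes. Series 2 held 4 monosomics with 1 copy of 1L, 3 diploids with 2 and 3 trisomics with 3. The trisomics, tetrasomics and monosomics have a diploid set of the other chromosomes, and neither strain, age nor the way in which 1L was added or removed is given in the sources used here. Each library is a biological replicate by the series design.

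A haploid plant has a single set of every chromosome, so each gene loses a copy while the ratios between genes stay as in a diploid. An aneuploid plant changes the dose of some genes against the rest, and in maize and fruit flies genes outside the varied segment are known to respond to such a change, with the dose or against it. Regulators and the subunits of protein complexes are known to be sensitive to these ratios. A CPM value is itself a ratio to the rest of the library, so a gene that loses transcripts in step with all others keeps its CPM. In leaf RNA, fewer cells of a type and less RNA per cell cannot be told apart. The files pair identifiers with no name, product, sequence or position, and 0 of them matched the reference gene table, so the genes are described by rank, level, length and behaviour, and the leaf markers could not be looked up.

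Libraries held between 13199571 and 19860440 counted reads, so 1 CPM rested on 13.2 to 19.9 reads. Diploid replicate 1 of series 1 stood apart. Its chi-square per gene against the other diploids was 56.9 to 75.3, against 13.3 to 19.0 among those others. Pairs of libraries within the other groups also reached 62.7 in series 1 trisomics, 81.8 in haploids and 65.0 in series 2 monosomics. The list depends on that diploid. Chosen without it, the list shared 53 of its 100 genes with the one described, while leaving out any other library of the 4 groups used left between 71 and 87. With the genes held as they are and that library dropped, 98 of the 100 had a haploid mean below the diploid mean, with a median difference of -0.82. In 79 that difference was at or below the weaker difference of the gene ranked 100, and 59 genes met the tetrasomic limit. The remaining libraries had also chosen the genes, so these counts are a description.

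The values that chose the genes are given as a description and were not tested. The haploid minus diploid difference had a median of -0.86 (log2) over the 100 genes and ran from -2.40 to -0.59. That of disomic haploids against tetrasomics had a median of -0.93 and ran from -3.23 to -0.58. Over all eligible genes the medians were 0.07 and 0.06. The median gene kept 53.1% of its diploid CPM in haploids, with a range of 13.6 to 66.4%, and 51.3% of its tetrasomic CPM in disomic haploids. In 26 genes both differences were at or below -1. The haploid difference was the weaker in 61 genes and the disomic haploid difference in 39. In the edgeR fit, which used TMM scaling, the haploid median was -1.04 over the 100 genes and -0.05 over eligible genes. The edge of the list is not a gap, since the last gene inside had a weaker difference of -0.581 and the first outside of -0.578.

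**Figure D1:**
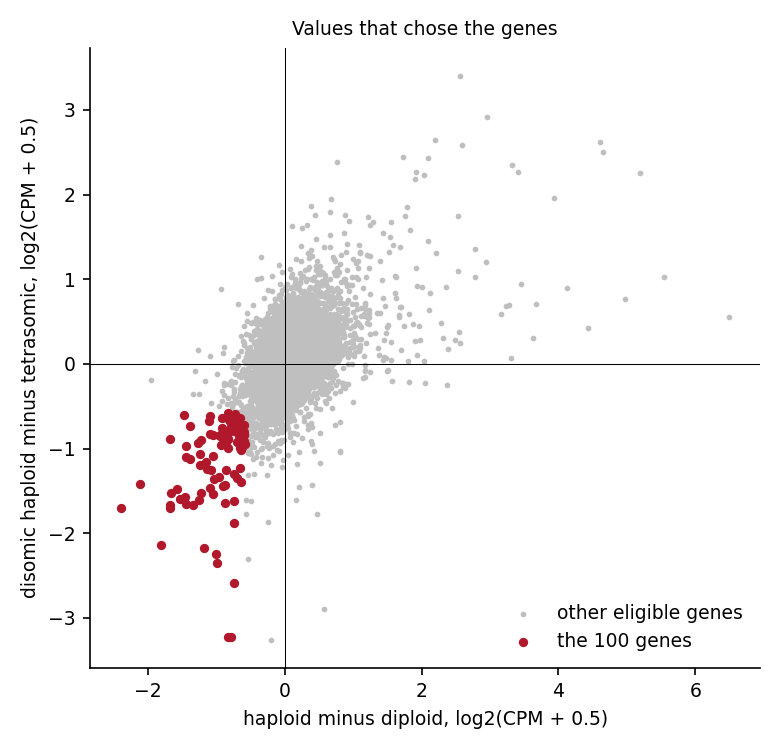
Differences that chose the genes, for all 8287 eligible genes. The x axis is haploid minus diploid and the y axis disomic haploid minus tetrasomic, both in log2(mean CPM + 0.5); grey points are eligible genes and red points the 100 genes, which fill the lower left corner at or below -0.58 on both axes.

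Group means hid much variation between plants. In 36 of the 100 genes every haploid and disomic haploid library lay below every diploid and tetrasomic library, as did 72 of the 8287 eligible genes. All 3 haploids lay below all 4 diploids in 46 genes, a pattern found in 2.97% of all genes tested, and both disomic haploids lay below all 3 tetrasomics in 90, found in 15.1%. By edgeR's quasi-likelihood test with Benjamini-Hochberg adjustment, 20 of the 100 were called lower in haploids than in diploids, where 0.517% of all genes were called lower. In disomic haploids 7 of the 100 were called lower than in tetrasomics, where 0.160% of all genes were. Both contrasts were used by the rule, so nothing is read from these counts. Haploid replicate 2 had the highest haploid level in 62 genes, and diploid replicate 1 had the highest diploid level in 46 genes and the lowest in 33.

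The top of the list shows how far single libraries matter. Zm00004b032235, ranked first, had 0.976, 1.52 and 0.400 CPM in the haploids and 0.835 and 0.778 CPM in the disomic haploids. It had 10.1, 3.01, 2.81 and 2.74 CPM in the diploids and 7.23, 6.56 and 1.99 CPM in the tetrasomics. No library of the haploid backgrounds reached the diploid or tetrasomic range, but the diploid mean rested on replicate 1. Without that replicate its haploid difference was -1.19 instead of -1.82, and its tetrasomic difference was 0.78, outside the limit for the list. Its trisomic libraries had 3.41, 7.93, 10.6, 15.0 and 10.8 CPM, above the haploids in each case. These trisomic values counted towards the CPM minimum for the list, and the diploid mean of this gene alone was under that minimum. Its high trisomics are therefore partly a condition of its place in the list. In series 2 the same gene stood far higher, at 45.3, 49.7 and 51.8 CPM in diploids, 58.1, 57.1, 19.6 and 50.7 CPM in monosomics and 44.3, 43.5 and 52.1 CPM in trisomics. The series 2 groups overlapped, and edgeR made no call for it there, with adjusted p of 0.729, 0.963 and 0.809 in the 3 comparisons.

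Zm00004b034646, ranked second, kept the smallest share of its diploid level in haploids. Its haploid libraries had 2.01, 0.293 and 0.743 CPM and its disomic haploid libraries 1.22 and 2.27 CPM. The diploids had 11.6, 2.81, 9.84 and 5.66 CPM, the tetrasomics 5.74, 8.83 and 5.91 CPM, and the trisomics 22.5, 8.19, 8.64, 7.5 and 12.3 CPM. All 5 libraries of the haploid backgrounds lay below all the others of series 1, and the difference did not rest on diploid replicate 1, being -2.13 without it. In series 2 the gene was low in every group, at 2.36 to 2.60 CPM in diploids, 2.01 to 2.37 CPM in monosomics and 1.19 to 4.08 CPM in trisomics, and was called in no comparison.

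The gene of rank 3 was more abundant, with a diploid mean of 246 RPKM (CPM divided by the gene's length in kilobases) against 3.05 and 7.02 RPKM for the first and second. Its haploid libraries had 157, 27.5 and 181 CPM and its disomic haploid libraries 36.1 and 177 CPM. The diploids had 368, 515, 445 and 240 CPM and the tetrasomics 230, 378 and 429 CPM. The groups did not overlap although both haploid backgrounds held a library several times below the others. Its trisomics ran from 172 to 676 CPM, so the lowest trisomic lay below the highest haploid.

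By the mean CPM of series 1 diploids a single gene held more than the other 99 together. Zm00004b027025, ranked 37, made up 51.8% of the summed diploid CPM of the 100 genes and also had the highest level per length, 7560 RPKM as the diploid mean, against 416 RPKM for the next. The median gene of the list stood at 9.02 RPKM. Its diploid libraries had 4770, 10617, 9727 and 7667 CPM, its tetrasomics 6072, 8201 and 5805 CPM, and its trisomics 5280, 6555, 8826, 10813 and 4528 CPM. The haploids had 4522, 4236 and 4666 CPM and the disomic haploids 1474 and 3506 CPM, below every diploid and tetrasomic library, although diploid replicate 1 lay only just above the haploids and the lowest trisomic below the highest haploid. Without diploid replicate 1 the haploid difference of Zm00004b027025 was -1.06. Its tetrasomic difference was then -0.48, outside the limit for the list. The gene with the next most reads in diploids, ranked 15, had 731, 774, 538 and 632 CPM there and 289, 311 and 286 CPM in haploids. Its disomic haploids were lower again, at 137 and 196 CPM, and its tetrasomics, at 570, 625 and 1059 CPM, lay with the diploids.

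The summed level of the list was 15808 ± 1580 CPM (SD, n = 4) in diploids, 14511 ± 1931 CPM (SD, n = 3) in tetrasomics, 8238 ± 357 CPM (SD, n = 3) in haploids and 6141 ± 2487 CPM (SD, n = 2) in disomic haploids. Without the most abundant gene these sums were 7612 ± 1454, 7818 ± 619, 3763 ± 566 and 3652 ± 1050 CPM. The haploid sums lay close together and below all diploid sums with or without that gene. These groups chose the genes, so the sums are a description. The 2 disomic haploid plants differed from each other, at 4383 and 7900 CPM.

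**Figure D2:**
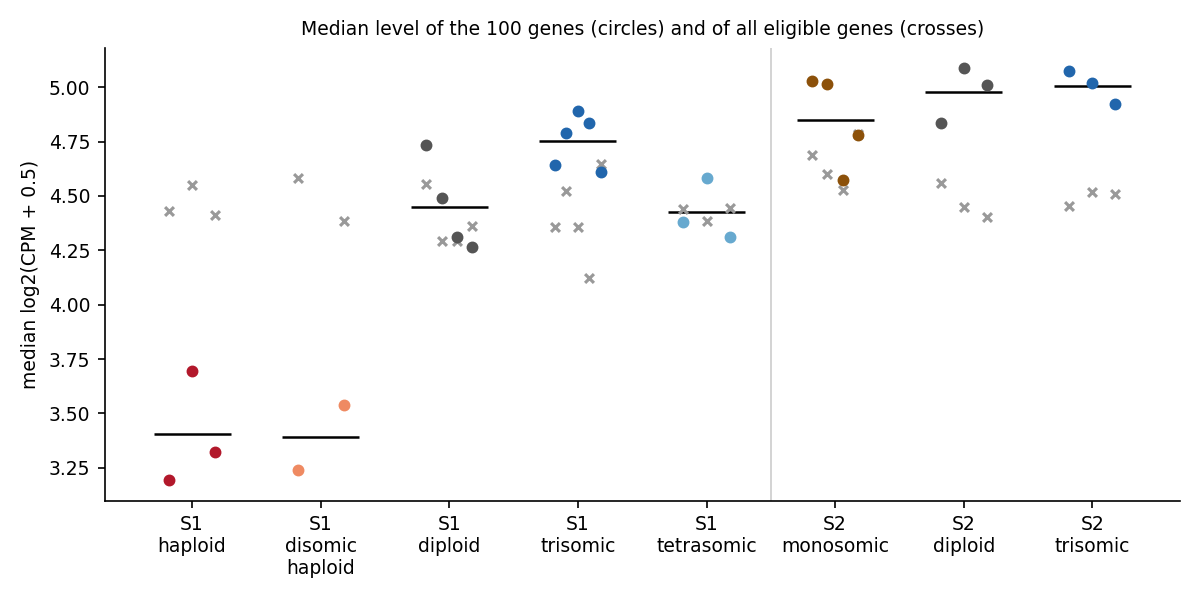
Median log2(CPM + 0.5) of the 100 genes in each library (circles, group means as bars) and of all eligible genes in the same library (grey crosses), by group; S1 and S2 are the series. Haploid and disomic haploid circles lie between 3.19 and 3.69, below the other series 1 libraries at 4.27 to 4.89, while the crosses of all series 1 libraries lie between 4.12 and 4.65. The series 1 groups other than the trisomics gave the differences that chose the genes.

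Disomic haploids and haploids differ by a copy of 1L. Both took part in choosing the genes, so their comparison is a description. Disomic haploid minus haploid had a median of -0.09 (log2) over the 100 genes and 0.01 over eligible genes, with 58 genes below 0 and 42 above. In 11 genes both disomic haploids lay below all haploids and in 6 above, compared with 13.4 and 16.9% of eligible genes. The spread was wide, from -2.56 to 0.97, and 6 genes were below -1.

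Because the same plants chose and showed the difference, each haploid or disomic haploid library was also held out, the 100 genes were chosen again without it, and the held-out library was compared with the mean of the trisomics, which enter the rule only through the CPM minimum. The median over the new list was -1.27, -0.88 and -1.09 (log2) for haploid replicates 1, 2 and 3 and -1.38 and -1.07 for disomic haploid replicates 1 and 2. Over all eligible genes the same medians lay between -0.04 and 0.15. Between 80 and 98 of the 100 genes were below the trisomic mean in each held-out library of the haploid backgrounds, fewest in haploid replicate 2. Diploid libraries held out in the same way gave medians of -0.45, -0.50, -0.54 and -0.56, and tetrasomic libraries -0.44, -0.13 and -0.47. Over eligible genes these were 0.13, -0.15, -0.13 and -0.07 for diploids and 0.04, -0.04 and 0.03 for tetrasomics. The genes below the trisomic mean numbered 82, 81, 88 and 88 in diploids and 73, 70 and 82 in tetrasomics. By this count haploid replicate 2 had fewer such genes than any diploid. By the median, all 5 held-out libraries of the haploid backgrounds lay below all 7 held-out diploids and tetrasomics, and the latter lay below the trisomics as well. Against the mean of the trisomic logs the haploids and disomic haploids gave -1.31 to -0.74, the diploids -0.50 to -0.43 and the tetrasomics -0.40 to -0.08. The lists differ between these values, which are descriptions with no test.

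The trisomics of series 1 thus formed the upper end. Over the 100 genes the trisomic minus diploid difference had a median of 0.33 (log2), with 82 genes above 0, while over eligible genes it was 0.02, with 55.7% above 0. Against tetrasomics the median was 0.30, with 80 genes above 0, and -0.01 over eligible genes. The trisomic mean exceeded both the diploid and the tetrasomic mean in 74 genes and in 36.7% of eligible genes. In 56 genes every library of the haploid backgrounds lay below every trisomic library, a pattern of 2.24% of eligible genes. The diploids and tetrasomics of these comparisons took part in choosing the genes, so the values are a description. The trisomics counted towards the CPM minimum, and 4 of the 100 genes had a diploid mean under it. For genes near the minimum a high trisomic level could help them into the list. How far this raised the trisomic values was not tested.

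Trisomic plants were unequal in this. The median difference of the 100 genes from the diploid mean was 0.04, 0.29, 0.42, 0.35 and 0.20 in trisomic replicates 1 to 5, beside -0.04, 0.10, -0.06, -0.24 and 0.23 over eligible genes. Replicates 3 and 4 stood highest against the eligible genes, and replicate 5 did not stand above them. No gene was called by edgeR between trisomics and diploids (0 of 100, with 1.52% of all genes called and 0.511% of those outside the left-out run). At an unadjusted p below 0.05 there were 10, of which 9 were higher, beside 14.8% of all genes. Of eligible genes 1.30% were higher and 6.55% lower at that level. DESeq2 called 2 of the 100, where it called 1080 of 22711 genes, and limma-trend 1, where it called 344 of 22435. Without diploid replicate 1 edgeR called 4, all higher, of 699 calls over all genes, and without trisomic replicate 1 it called 1, also higher, of 640. All trisomics lay above all diploids in 5 genes and below in 0, patterns of 3.84 and 1.17% of all genes tested and of 0.748 and 0.640% of eligible genes.

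**Figure D3:**
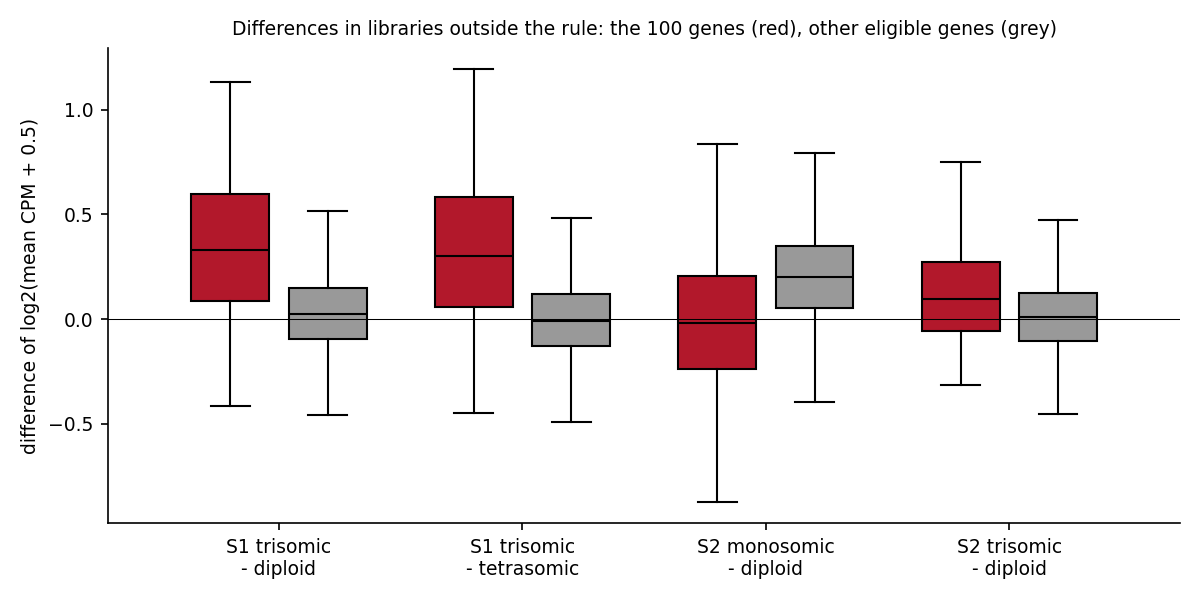
Differences of log2(mean CPM + 0.5) between groups, for the 100 genes (red) and the other eligible genes (grey). In each, at least 1 side gave no difference of the rule, although series 1 trisomics counted towards its CPM minimum. Boxes give quartiles and median, whiskers the last value within 1.5 box heights, and genes beyond are not drawn; the red medians are 0.33, 0.30, -0.02 and 0.10 from left to right.

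Series 2 took no part in choosing the genes and gives the tests. All 100 passed its low-count filter. Its diploids enter both comparisons with diploids, so those are not independent of each other. In monosomics, which lose a copy of 1L on a diploid background, 3 of the 100 genes differed from diploids by edgeR's quasi-likelihood test, 2 higher and 1 lower. Of all genes tested 5.50% were called, and of those outside the left-out run 1.65%, with 0.959% higher and 0.694% lower. Among 8280 eligible genes tested, 36 were called higher and 24 lower. The share of the list was not tested against any of these, and nothing is read from its 3 calls as a set. Its median log2 fold change was -0.18, with 71 genes below 0, and that of eligible genes was 0.06. All monosomics lay below all diploids in 5 genes and above in 5, beside 6.41 and 9.23% of all genes tested and 1.01 and 10.6% of eligible genes. At an unadjusted p below 0.05, 17 genes were lower and 5 higher, compared with 3.36 and 4.46% of eligible genes. Of all genes tested, which include the left-out run, 10.3% were lower and 5.84% higher at that level. With CPM alone the median of the 100 genes was -0.02 and that of eligible genes 0.20. In each monosomic library the median of the list lay below the eligible median, by 0.12, 0.14, 0.48 and 0.34 in replicates 1 to 4. The medians of the list itself against the diploid mean were 0.09, -0.02, -0.41 and -0.09. All of these values share the same diploids.

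The gene called lower was Zm00004b027025. Its monosomic libraries had 4010, 3558, 3958 and 4450 CPM, its diploids 6110, 7461 and 8976 CPM and its trisomics 7490, 8669 and 7096 CPM. Every monosomic lay below every diploid and trisomic, which overlapped with each other. The log2 fold change was -1.07 (SE 0.18, adjusted p = 0.00525) in monosomics against diploids and 1.05 (SE 0.18, adjusted p = 0.00206) in trisomics against monosomics. Both calls held without any single library, with adjusted p up to 0.0268 and 0.0153. With replicate numbers as a block the call against diploids was lost, at adjusted p of 0.0758 for the title numbers and 0.222 for the S numbers and log2 fold changes of -1.05 and -0.98. Against diploids the trisomics differed by -0.02 (SE 0.19, adjusted p = 0.990). The level in monosomics, 3994 ± 365 CPM (SD, n = 4), stood beside 4475 ± 219 CPM (SD, n = 3) in the haploids of series 1. The series come from separate tables, and that pair was not tested.

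The genes called higher in monosomics were ranked 33 and 89. Rank 33 had 39.2, 28.1, 21.7 and 17.8 CPM in monosomics against 11.4, 9.42 and 14.6 CPM in diploids, with no overlap, and a log2 fold change of 1.02 (SE 0.26, adjusted p = 0.0410). Rank 89 had 240, 317, 175 and 190 CPM against 133, 51.9 and 82.6 CPM, also with no overlap, and a log2 fold change of 1.24 (SE 0.29, adjusted p = 0.0300). Both had been chosen for a lower mean in haploids, and both were higher in monosomics, each against the diploids of its own series. The calls were not firm. Rank 33 lost its call without monosomic replicate 1 or 2 (adjusted p = 0.0920 and 0.0915) and without diploid replicate 1 or 2 (0.145 and 0.191). Rank 89 lost it without monosomic replicate 1 or 2 (0.0639 and 0.0738) and without diploid replicate 2 or 3 (0.107 and 0.112).

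In trisomics of series 2 none of the 100 genes was called against diploids by edgeR (0 of 100, with 0.266% of all genes and 0.210% of those outside the left-out run called). At an unadjusted p below 0.05 there were 3, all lower, beside 2.68% of eligible genes, 1.61% lower, and 9.61% of all genes. DESeq2 called 1, lower, where it called 428 of 25694 genes. All trisomics lay below all diploids in 5 genes and above in 5, beside 5.53 and 13.4% of all genes tested and 4.20 and 6.59% of eligible genes. The median log2 fold change of the list was 0.03, and that of eligible genes -0.04. On the CPM scale the median trisomic minus diploid difference of the list was 0.10 in series 2, beside 0.33 in series 1. The 3 trisomic libraries had medians of 0.05, 0.18 and 0.02, beside -0.02, 0.02 and 0.01 over eligible genes. The difference between the series was not tested.

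Between trisomics and monosomics, the series 2 groups farthest apart in 1L dose, 11 of the 100 genes were called, 8 higher and 3 lower in trisomics, where 14.8% of all genes tested and 9.13% of those outside the left-out run were called. The share of calls, both directions together, lies between these. The list had a median log2 fold change of 0.23, with 69 genes above 0, and eligible genes one of -0.10. All trisomics lay above all monosomics in 16 genes and below in 7, beside 12.2 and 14.8% of all genes tested and 3.66 and 16.8% of eligible genes. By direction, 3.77% of the genes outside the run were called higher and 5.35% lower. Of 8280 eligible genes tested, 154 were called higher and 258 lower.

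Zm00004b022035, ranked 22, had the largest of these changes. Its monosomic libraries had 0.508, 0.938, 1.84 and 2.37 CPM, its diploids 1.89, 7.13 and 3.80 CPM and its trisomics 6.29, 7.14 and 12.4 CPM. Monosomics and trisomics did not overlap, and the diploids overlapped with both. The log2 fold change of trisomics against monosomics was 2.69 (SE 0.54, adjusted p = 0.00549), and it stayed called without any single library, with adjusted p up to 0.0273. In series 1 the gene had 2.28, 16.9 and 7.89 CPM in haploids, 13.2, 34.7, 27.7 and 12.3 CPM in diploids, and 2.37, 21.9, 12.5, 31.0 and 37.5 CPM in trisomics. The haploids overlapped with both, and the lowest trisomic stood next to the lowest haploid. Without diploid replicate 1 of series 1 the tetrasomic difference of Zm00004b022035 was -0.32, outside the limit for the list.

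**Figure D4:**
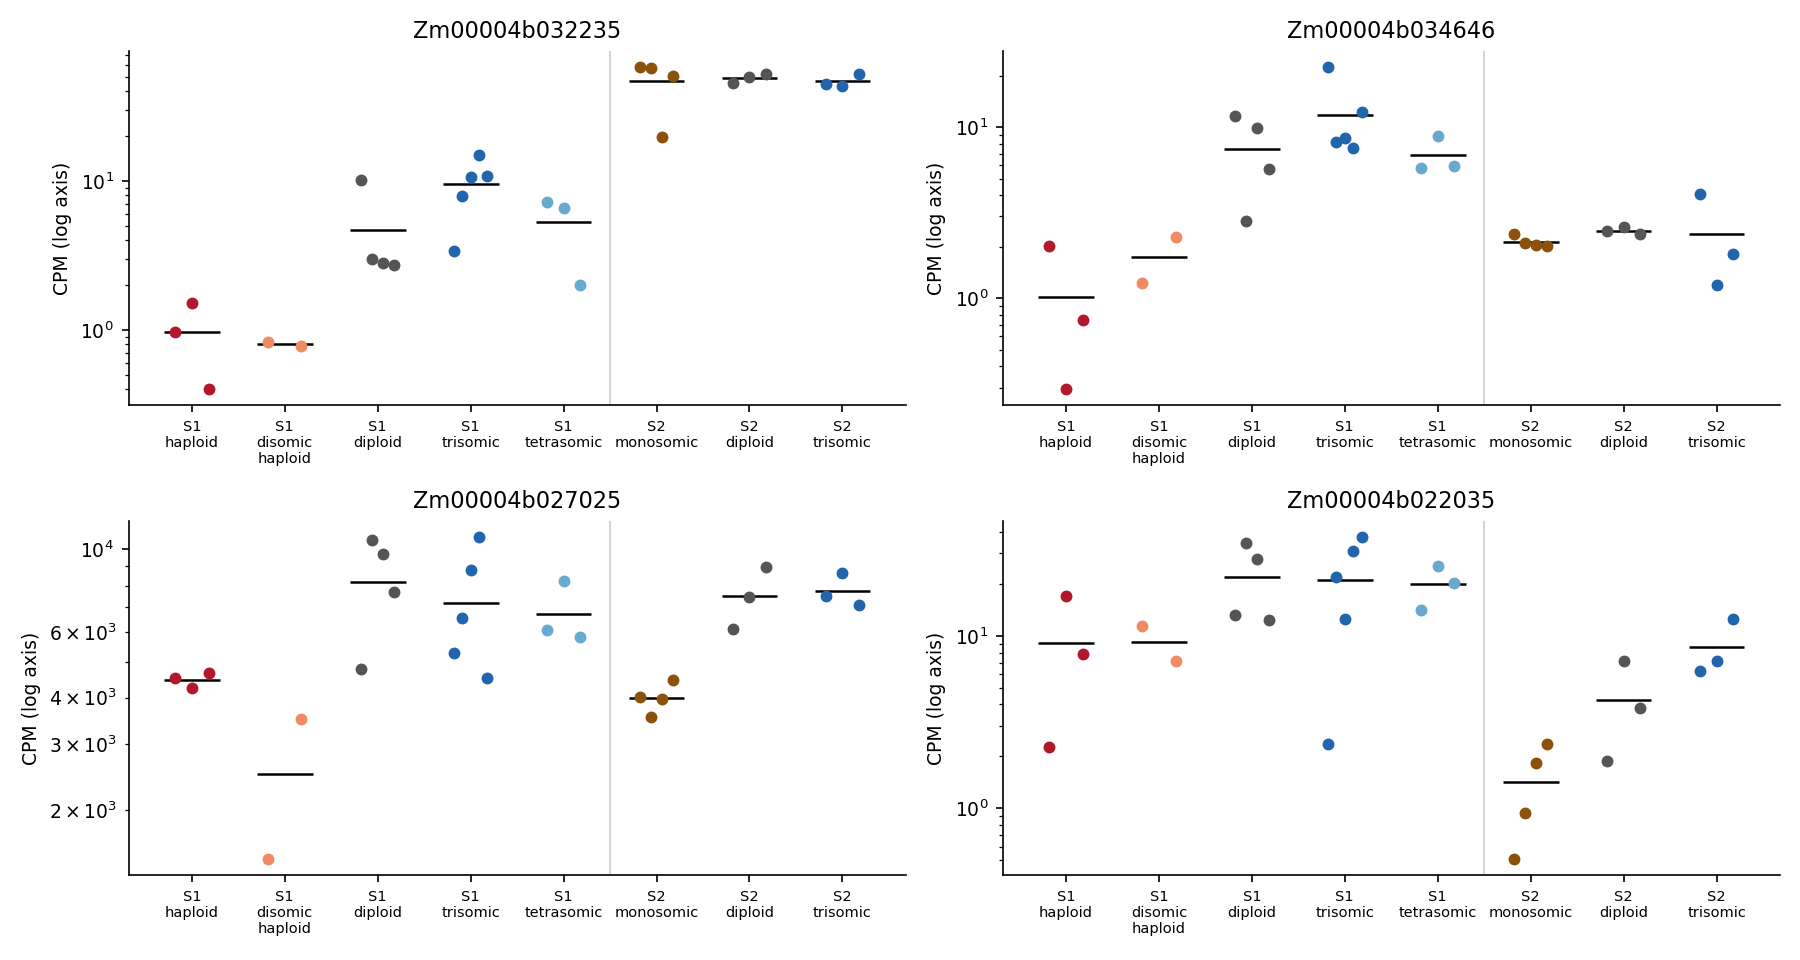
CPM in every library (points) and group means (bars) of Zm00004b032235, Zm00004b034646, Zm00004b027025 and Zm00004b022035, on log axes with a scale of its own for each gene; S1 and S2 are the series. Zm00004b032235 lies higher in every series 2 library than in any series 1 library, Zm00004b027025 is low in haploids and monosomics, and Zm00004b022035 rises from monosomics at 0.508 to 2.37 CPM to trisomics at 6.29 to 12.4 CPM.

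The other genes called higher in trisomics than in monosomics were ranked 11, 16, 18, 19, 45 and 83, with log2 fold changes of 0.59, 0.84, 0.66, 1.12, 1.25 and 1.04. Rank 83 had 51.1, 56.2 and 59.8 CPM in trisomics against 32.6, 29.3, 25.4 and 28.7 CPM in monosomics (adjusted p = 0.00954), and rank 45 had 13.6, 20.2 and 23.5 CPM against 10.8, 10.7, 4.68 and 8.36 CPM (adjusted p = 0.00961). These groups did not overlap, and both calls held without any single library. The calls of the others did not. Rank 11 was lost without monosomic replicate 2 or 3 (adjusted p = 0.0962 and 0.0646) or without trisomic replicate 1, 2 or 3 (0.135, 0.0866 and 0.130). Rank 16 was lost without monosomic replicate 1 (0.0551) or trisomic replicate 1 or 2 (0.0710 and 0.119), and rank 18 without monosomic replicate 1 (0.0600) or trisomic replicate 2 or 3 (0.0648 and 0.111). Rank 19 was lost without monosomic replicate 1, 3 or 4 (0.0582, 0.0574 and 0.0720) or trisomic replicate 1 or 2 (0.149 and 0.117).

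The 3 genes called lower ran the other way. Rank 17 had 3.40, 3.00 and 2.24 CPM in trisomics against 8.74, 8.56, 10.6 and 5.69 CPM in monosomics, with diploids between at 4.10, 4.05 and 5.58 CPM. Trisomics and monosomics did not overlap, and the log2 fold change of -1.46 (SE 0.30, adjusted p = 0.00614) held without any single library. Rank 33, also called against diploids, had 12.5, 13.6 and 13.4 CPM in trisomics, below all monosomics, and a log2 fold change of -0.92 (SE 0.26, adjusted p = 0.0316). It lost the call without monosomic replicate 1 or 2 (0.0739 and 0.0646) or trisomic replicate 1, 2 or 3 (0.102, 0.101 and 0.0952). Rank 57 had 9.80, 8.44 and 9.64 CPM in trisomics against 19.3, 16.5, 11.6 and 15.4 CPM in monosomics, a log2 fold change of -0.65 (SE 0.16, adjusted p = 0.0184), and lost its call without trisomic replicate 2 or 3 (0.1002 and 0.0620).

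The diploid level of these genes was set side by side between the series as a description, since the rule used the diploid means of series 1. It differed by more than 1 on the log2 scale in 30 of the 100 genes and in 8.69% of eligible genes, and the median size of the difference was 0.56 beside 0.31. In 18 genes the series 2 diploid mean was at least 2 times that of series 1 and in 13 at most 0.5 times, with extremes of 10.5 and 0.0976 times. By log2(mean CPM + 0.5), 17 of the 100 genes were more than 1 higher in series 2 diploids and 13 more than 1 lower. Of 8287 eligible genes 335 and 385 were. In 14 genes the diploid mean of series 2 stood below even the haploid mean of series 1, which was not counted over eligible genes. In 93 the mean over series 2 was still at least 5 CPM. How the plant material of the series differs is not given in the labels, and its part in these differences was not tested.

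The genes also varied between like plants. Over the 4 monosomics of series 2 the standard deviation of log2(CPM + 0.5) had a median of 0.49 for the 100 genes and 0.28 for eligible genes. It was 0.25 beside 0.20 in series 2 diploids, 0.22 beside 0.14 in series 2 trisomics and 0.37 beside 0.30 in series 1 trisomics. In each of these groups the list had the higher median. None of them gave the differences of the rule, although the series 1 trisomics counted towards its CPM minimum. The mean pairwise correlation between its genes was 0.08 over the 5 trisomics of series 1, beside 0.24 for eligible genes, and 0.13 over the 10 libraries of series 2 after group means were removed, beside 0.05. The points of each correlation share their libraries and depth.

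**Figure D5:**
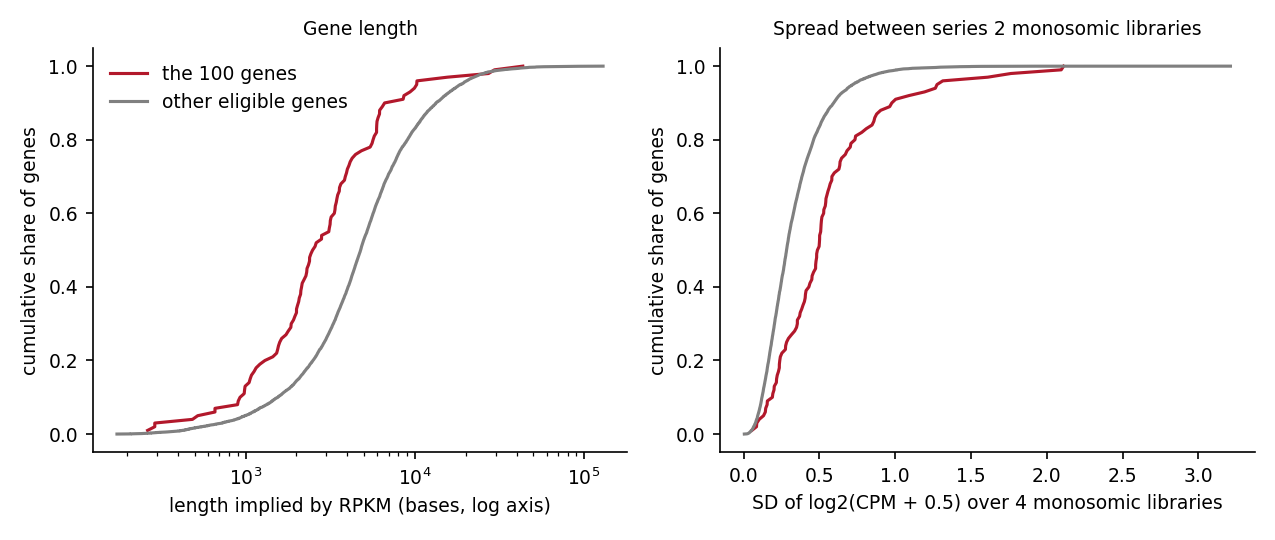
Cumulative shares of the 100 genes (red) and the other eligible genes (grey) by gene length in bases on a log axis (left) and by the standard deviation of log2(CPM + 0.5) over the 4 monosomic libraries of series 2 (right). The red curve lies to the left for length, with a median of 2532.5 bases beside 4764 over all eligible genes, and to the right for spread, with a median of 0.49 beside 0.28.

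The gene models of the list were shorter at the median. The length implied by the deposited counts and RPKM had a median of 2532.5 bases and quartiles of 1624.5 and 4317.5 for the 100 genes, beside 4764, 2890.5 and 7775 bases for eligible genes. The range was wide, from 264 to 43457 bases. Levels by CPM were alike, with a median series 1 mean of 19.8 CPM for the list and 21.2 CPM for eligible genes. The list nevertheless held 23 genes with a diploid mean of at least 100 CPM and 22 under 10 CPM. Identifier numbers ran from 22 to 40077, with a median gap of 251 between neighbours, 1 consecutive pair and 5 pairs of neighbours within 10 identifiers. The genes were thus spread along the identifiers, and of these features the rule used only the CPM minimum and the left-out run.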

How the data were processed

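Leaf poly(A) RNA was extracted with TRIzol and made into TruSeq libraries, per the labels. The submitters' processing notes name Bowtie, TopHat, Cufflinks and Cuffdiff without roles or versions, and the sources used here do not give the genome build. For 27 libraries the authors deposited unscaled read counts for each gene model. The authors' deposited RPKM values equalled those counts scaled by a single length per gene and by library total, and were used for lengths and for 1 alternative. The 2 DNA libraries were not used here. The 100 genes, and all lists and tests, were chosen with earlier results of these data known.

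CPM was computed from column totals, with 0.5 added before logs. Each series was fitted as a whole in edgeR 4.0.16 (R 4.3.3) with TMM scaling, the filterByExpr filter and robust two-sided quasi-likelihood F-tests, with group as the only term and Benjamini-Hochberg adjustment over all genes tested. An adjusted p below 0.05 was a call. All 100 genes passed the filter in both series. DESeq2 1.42.0 and limma 3.58.1 served as alternatives, with other filters, scalings, replicate blocks and each library left out. Depth was 13199571 to 18923160 counted reads in series 1 and 14115560 to 19860440 in series 2. Reads carry no molecular identifiers, so counting error is only part of the spread, and whether a gene shares reads with a near-identical copy or an overlapping gene was not analysed here.

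Identifiers printed are the genes ranked 1 and 2 and the 2 genes with the smallest adjusted p among those higher in a series 2 comparison. Ranks 3, 15 and 99, the edge of the list and the genes called in series 2 are described without identifiers. Gene lists and leaf markers by name could not be matched to the identifiers. Holding out diploid and tetrasomic libraries, and the mean of logs, were added after the other held-out values had been seen.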

Additional observations from a re-analysis of the deposited data

Results flagged for a closer look

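Among 63 sets of 4 or 5 like libraries examined for the genes described and the summed levels, 4 had a library far from the rest; chance gives about 1 in 20. Diploid replicate 1 of series 1 stood apart in the genes ranked 1 and 18, at 10.1 and 963 CPM, where the other diploids had 2.74 to 3.01 and 162 to 256 CPM. Without it the haploid minus diploid difference of rank 18 was -0.53 instead of -1.39, above the edge of the list, and its tetrasomic difference was 1.14. In the gene ranked 99, which kept the largest share of its diploid level in haploids at 66.4%, trisomic replicate 5 of series 1 stood at 148 CPM against 87.4 to 104 CPM in the other trisomics, and monosomic replicate 1 of series 2 at 121 CPM against 80.3 to 83.8 CPM.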

How the results depend on the processing

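The make-up of the list was kept to between 70 and 97 of 100 genes under the other settings of the rule, but to 63 with a minimum of 1 CPM, 64 with a tetrasomic limit of 0.5 and 60 with group medians. Leaving out single libraries gave 53 to 87, lowest without diploid replicate 1. The held-out median of haploid replicate 1 was -1.07 with a pseudocount of 2 and -0.96 when diploid replicate 1 was also dropped. The trisomic minus diploid median of 0.33, with alternatives chosen after seeing the data, was 0.26 to 0.39 without single libraries.

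For monosomics against diploids the count of calls was 8 with DESeq2 (4 higher, 4 lower, of 1770 calls over all genes) and 1, lower, of 681 with the compared libraries alone. It ran from 1 to 8 without single libraries. The balance of higher and lower calls turned without monosomic replicate 1 or 2 (1 call, lower), without monosomic replicate 3 (8 calls, 3 higher and 5 lower) and without diploid replicate 1 (4 calls, 1 higher and 3 lower). For series 2 trisomics against diploids DESeq2 and the compared libraries alone gave 1, and single libraries left out 0. For trisomics against monosomics DESeq2 gave 19, of 4110 calls among 24513 genes, and leaving out single libraries 5 to 18, of 2044 to 3546 calls over all genes. For series 1 trisomics against diploids DESeq2 gave 2 and limma-trend 1, with 0 to 4 without single libraries. In the contrasts of the rule, haploids against diploids gave 43 of 1090 calls with DESeq2, 11 with limma-trend, 0 with the compared libraries alone and 6 to 27 without single libraries. Disomic haploids against tetrasomics gave 26 of 553 calls with DESeq2, 14 with the compared libraries alone and 0 to 11 without single libraries. Where no total over all genes stands beside a count, nothing about the list is read from it. The cause of these changes was not tested.

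Deviations of same-numbered libraries correlated between -0.20 and 0.25 for the title numbers and between -0.27 and 0.15 for the S numbers. Differently numbered libraries were not correlated for comparison, so whether the numbers pair the libraries cannot be decided from these values. With the replicate block of title numbers the calls came to 0 in monosomics against diploids, where 2 of 21358 genes were called in all, 10 in trisomics against monosomics (5 higher, 5 lower, against 8 and 3 without the block), 1 in series 2 trisomics against diploids, 0 in haploids against diploids and 0 in disomic haploids against tetrasomics. With the S numbers as a block they came to 0 in monosomics against diploids, with 0 over all genes, and 5 in trisomics against monosomics. Totals over all genes under the blocks are given here only for monosomics against diploids. Nothing about the list is therefore read from the other counts or from their directions. Of the 14 calls of single genes in series 2, those of ranks 17, 22, 37 and 83 between trisomics and monosomics held under every alternative run.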
